A study of Mus musculus with 30 samples.

Results

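The genes described here are the 2 mouse genes that encode the histone variant H2A.Z and 4 genes of proteins that handle it: H2afz (H2A.Z.1), H2afv (H2A.Z.2), the chaperones Anp32e and Nap1l1, and the remodeller ATPases Ep400 and Ino80. They were taken by name from 4 count tables of nuclear RNA-seq, in which they are 6 of 55401 genes, and all 6 passed the filter on low counts in every table. Exonic reads were read first and intronic reads beside them.

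H2A.Z replaces canonical H2A in nucleosomes around active and bivalent promoters and at enhancers. The exchange is made by ATP-dependent remodellers: SRCAP and the p400 ATPase (Ep400) of the TIP60 complex put H2A.Z-H2B dimers into chromatin, while the INO80 ATPase (Ino80) has been assigned the opposite exchange and nucleosome sliding. ANP32E is a chaperone that binds H2A.Z and takes it out of chromatin, and NAP1L1 carries H2A-H2B and H2A.Z-H2B dimers. The 2 H2A.Z proteins differ in few residues but come from separate genes.

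The study asked what follows when SRCAP is removed from mouse embryonic stem cells within hours. Its 30 libraries fell into 15 groups with 2 biological replicates each. SYAT cells derive from a single clone of the CGR8 line in which both Srcap alleles carry a YPet-AID tag (AID, auxin-inducible degron). That clone was transduced to express the OsTir1 receptor stably, and cells that lost YPet under IAA were sorted. The auxin IAA (500 µM) thus leads to degradation of the tagged protein. All control groups received auxinole, an inhibitor of the receptor, in place of IAA. The groups were CGR8 cells without tag or receptor, control and 4 h of IAA; SYAT cells, control and 2, 4, 6 and 8 h of IAA; SYAT cells sorted by DNA content and a mitotic degron reporter in early G1 (EG1) or late G1 (LG1), control and 1 h of IAA; and SYAT cells with a doxycycline-inducible wild-type (wtSRCAP) or catalytically dead (cdSRCAP) SRCAP-mCherry, control and 4 h of IAA. These last cells came from a single clone per construct, took doxycycline (1 µg/mL) for 24 h, and were sorted for mCherry. All cells were in serum with LIF.

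The tables held 45617992 to 60214521 exonic counts per library for CGR8 cells, 17540823 to 22873893 for the SYAT time course, 19740778 to 26672402 for sorted cells and 12236493 to 26369773 for wtSRCAP and cdSRCAP cells. All 8 embryonic stem cell markers were expressed in every table, with a summed level of 1513 to 4435 CPM (counts scaled to library size). The 6 fibroblast genes summed to 5.12 to 46.9 CPM and the 5 primitive endoderm genes to 4.97 to 23.9 CPM. The 5 trophoblast genes summed to 45.3 to 161 CPM and the 4 neural genes to 39.2 to 183 CPM. Srcap itself lay at 21.3 to 24.2 CPM in CGR8 cells and 39.9 to 60.2 CPM in the SYAT time course. These were scaled separately and the levels are not compared. Gm42715 overlaps 9738 of the 15783 exonic bases of Srcap on the same strand. How reads from that stretch were counted is not given, so the Srcap values carry that uncertainty. Srcap RNA does not report the degradation of the protein. A pair of libraries stood apart in the share of mitochondrial reads: replicate 2 of the 6 h group (0.529%, against 1.80 to 2.44% in the other time course libraries) and replicate 1 of the IAA-treated wtSRCAP group (0.215%, against 0.606 to 0.808% in the other libraries of its table). In CGR8 cells the share ran from 0.575% in replicate 1 of the control to 2.01% in replicate 2 after IAA, with the other libraries at 1.06% and 1.08%. Several values that moved when one of these libraries was left out are given with and without it, and others only with all libraries.

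The 2 H2A.Z genes are shown first as sequences, because every comparison of them depends on reads being told apart. The lines below give the first 300 of 387 coding bases of each gene (GRCm38, which is the mm10 build), with each base that differs between them in capitals. H2afz lies on the plus strand at chr3:137864487-137866922 with 1776 exonic bases, and the coding bases span chr3:137864694-137866447. H2afv lies on the minus strand at chr11:6427229-6444443 with 1633 exonic bases, and its coding bases span chr11:6428371-6444339.
H2afz coding bases: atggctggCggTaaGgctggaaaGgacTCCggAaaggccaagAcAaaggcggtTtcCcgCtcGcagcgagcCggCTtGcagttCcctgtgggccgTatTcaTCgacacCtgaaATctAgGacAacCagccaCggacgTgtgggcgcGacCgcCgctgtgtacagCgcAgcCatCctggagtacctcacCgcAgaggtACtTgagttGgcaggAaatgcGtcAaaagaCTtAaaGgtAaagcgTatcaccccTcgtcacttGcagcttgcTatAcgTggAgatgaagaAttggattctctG
H2afv coding bases: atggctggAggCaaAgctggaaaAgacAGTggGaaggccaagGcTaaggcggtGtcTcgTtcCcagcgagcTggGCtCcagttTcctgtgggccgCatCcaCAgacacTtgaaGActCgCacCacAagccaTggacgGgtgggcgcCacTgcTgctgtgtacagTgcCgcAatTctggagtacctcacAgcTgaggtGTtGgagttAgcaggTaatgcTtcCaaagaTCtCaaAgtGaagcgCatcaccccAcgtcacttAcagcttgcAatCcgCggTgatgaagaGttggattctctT

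Over all 387 coding bases, 81 differed (79.1% identity), spread over 74 of 129 codons, and the longest identical run was 14 bases. A read of ordinary length from the coding part therefore carries several differences. The uncertain neighbours are genes elsewhere in the genome with stretches of near-identical sequence, and no annotated gene overlaps H2afz or H2afv. The pseudogene Gm8203 holds the 387 H2afz coding bases at 100% identity and had 0 exonic counts in every library. In the opposite orientation, 682 bases of H2afz exon match Tmcc1 on chromosome 6 at 99.9% identity and 708 bases match the lincRNA Gm26623 on chromosome 12 at 97.5%. Tmcc1 held 132 to 978 exonic counts per library, and the counts of Gm26623 were not used here. Nap1l1 has the largest such neighbour, Gm4204, which matches 1234 of its bases at 99.5% and held 409 to 7497 exonic counts per library against 2870 to 38540 for Nap1l1. Ep400 shares 569 bases with Gm12928 (1 to 108 counts). How reads that map to several places were counted is not given in the sources used here, so Nap1l1 values carry that uncertainty. H2afz values carry it too, because reads from its 387 coding bases also match Gm8203, and so does any value computed from H2afz.

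The promoters of H2afz, H2afv and Anp32e are shown because they share a sequence feature that the choice of genes did not use, and they were picked after its matches had been counted. Each line runs from 250 bases before to 50 bases after the RefSeq start (GRCm38.p6, in the direction of transcription), and capitals mark the pentamer CCAAT, written ATTGG where it lies on the other strand. The windows are chr3:137864237-137864536 (plus strand), chr11:6444394-6444693 (minus strand) and chr3:95929007-95929306 (plus strand).
H2afz promoter: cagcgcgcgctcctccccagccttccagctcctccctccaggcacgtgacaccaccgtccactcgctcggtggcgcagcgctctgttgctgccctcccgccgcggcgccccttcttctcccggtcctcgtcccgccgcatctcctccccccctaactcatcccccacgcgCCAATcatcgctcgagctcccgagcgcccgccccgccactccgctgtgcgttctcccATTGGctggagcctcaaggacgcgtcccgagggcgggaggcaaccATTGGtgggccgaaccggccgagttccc
H2afv promoter: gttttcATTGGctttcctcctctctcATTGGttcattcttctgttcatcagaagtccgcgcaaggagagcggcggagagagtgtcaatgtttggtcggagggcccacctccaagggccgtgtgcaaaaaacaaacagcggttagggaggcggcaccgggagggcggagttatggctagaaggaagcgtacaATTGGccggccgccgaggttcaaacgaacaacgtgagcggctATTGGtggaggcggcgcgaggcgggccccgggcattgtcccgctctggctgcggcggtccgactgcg
Anp32e promoter: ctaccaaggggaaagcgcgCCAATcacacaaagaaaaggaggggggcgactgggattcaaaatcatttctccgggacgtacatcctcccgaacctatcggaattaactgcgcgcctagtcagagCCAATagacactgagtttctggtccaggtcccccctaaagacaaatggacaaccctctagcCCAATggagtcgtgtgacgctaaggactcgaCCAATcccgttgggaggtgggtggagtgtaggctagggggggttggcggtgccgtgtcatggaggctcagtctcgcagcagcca

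The H2afz window held 3 matches to CCAAT on either strand, the H2afv window 4 and the Anp32e window 4, while Ino80 and Nap1l1 had 1 each and Ep400 had 0. Of 32851 promoters of the same length, 37.4% held at least 1 match and 3.37% held 3 or more. GGGCGG was matched 2 times in H2afz, 1 time in H2afv, 2 times in Ep400 and 3 times in Ino80, and in 35.7% of all promoters. CACGTG was matched in H2afz only among the 6 genes (1 match, 7.15% of promoters), and TATAAA in none of them (13.6% of promoters). TTTGGCGC was matched in none of the 6 (0.514% of promoters). Both strands were searched, none of these motifs holds another, and a match is a description of the sequence only.

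Per kilobase of exon, H2afz was far above its partner and above every factor that handles it. H2afz lay between the 99.3th and 99.7th percentile of the genes tested in the 4 tables, with 308 to 661 CPM per kb in the SYAT time course. Nap1l1 was next (112 to 150.1 CPM per kb), followed by Anp32e (46.6 to 64.3), H2afv (23.3 to 56.5), Ep400 (19.7 to 25.9) and Ino80 (12.001 to 19.6). Over those 10 libraries the H2afz and Nap1l1 ranges were separate from each other and from the rest, and Ino80 lay below all the others, while H2afv overlapped with Anp32e and with Ep400. In CGR8 cells H2afv (49.2 to 84.2) and Anp32e (51.2 to 61.1) could not be ordered, nor could Ep400 (17.7 to 20.7) and Ino80 (18.5 to 23.2). In wtSRCAP and cdSRCAP cells H2afv was the lowest by mean, at 13.4 to 23.6 CPM per kb.

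**Figure D1:**
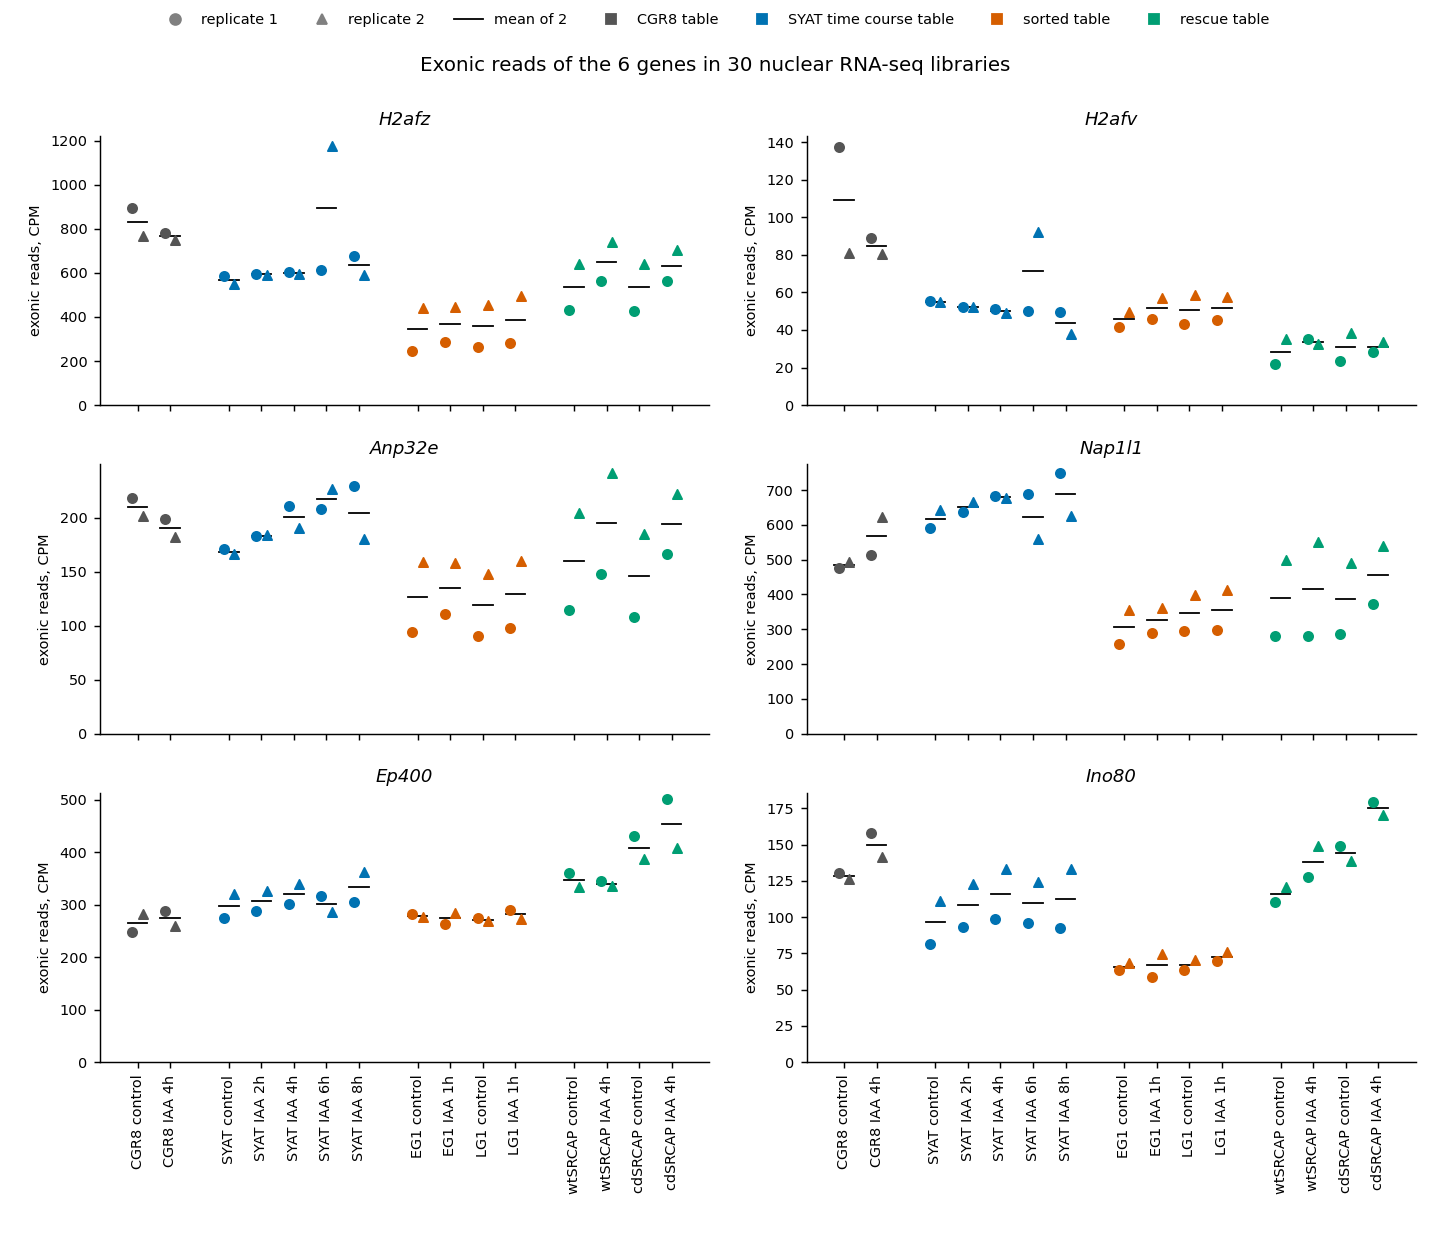
Exonic reads of each gene in CPM (vertical axis from 0, own scale per gene) in the 15 groups (horizontal axis); circles are replicate 1, triangles replicate 2, short lines the mean of 2, and colours the 4 tables, which were normalised separately. H2afz and H2afv stand apart in 1 library, replicate 2 of 6 h, and in the sorted cells replicate 2 lies above replicate 1 for H2afz, H2afv, Anp32e and Nap1l1 in every group.

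Removing SRCAP for 2 to 8 h left all 6 genes below the threshold for a change in exonic reads. A gene was called changed at an adjusted p (Benjamini-Hochberg) under 0.05 and an absolute log2 fold change over 0.5 in edgeR's quasi-likelihood test. At 2 h, 4 h, 6 h and 8 h, 0 of 6 genes were called, and the same rule called 0%, 0%, 0.0677% and 0.00521% of 19205 genes. For the mean of the 4 IAA times against control it called 0 of 6, against 1.21% of genes. At an unadjusted p under 0.05, 0, 0, 2 and 0 of 6 genes passed at 2, 4, 6 and 8 h, against 3.92%, 9.09%, 16.1% and 13.6% of all genes. For the mean 1 of 6 passed, against 14% of all genes, a share near that background. DESeq2 called 0 of 6 in each of these comparisons. Over all genes it called 9, 185, 639 and 463 at 2, 4, 6 and 8 h, and 546 for the mean. The median log2 fold change of the 6 genes for the mean of the times was 0.15, beside 0.02 over all genes tested.

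H2afz RNA was slightly higher in every IAA-treated SYAT library than in either control. It stood at 585 and 548 CPM in the controls, 594 and 591 CPM at 2 h, 603 and 596 CPM at 4 h, 614 and 1175 CPM at 6 h, and 675 and 592 CPM at 8 h. All 8 treated libraries thus lay above both controls, by a margin that was small except in replicate 2 of 6 h, and 5.97% of genes had all 8 treated libraries above both controls. The 6 h log2 fold change was 0.66 (SE 0.24, 95% interval 0.13 to 1.19, adjusted p = 0.22 in edgeR), and those at 2 h, 4 h and 8 h were 0.06, 0.08 and 0.16 (SE 0.24 each). Without replicate 2 of 6 h, the library with the low mitochondrial share, the 6 h value was 0.12. For the mean of the times the value was 0.24, and 0.10 without that library. Without replicate 1 of 6 h the 6 h value was 1.06, so that the 6 h value turned on which library was kept. Whether the low mitochondrial share has a part in that value was not tested. In bulk samples such as these, a change in RNA per cell and a change in the share of cells that hold it cannot be told apart.

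H2afv lay lower, not higher, in most of the same treated libraries. It stood at 55.3 and 54.9 CPM in the controls, 52.1 and 52.5 CPM at 2 h, 51.2 and 48.8 CPM at 4 h, 50.2 and 92.2 CPM at 6 h, and 49.8 and 38.1 CPM at 8 h. Every treated library except replicate 2 of 6 h lay below both controls, and that library was also the highest for H2afz. The log2 fold changes were -0.08, -0.14, 0.37 and -0.33 at 2, 4, 6 and 8 h (SE 0.24 each), and none passed the test (the lowest adjusted p was 0.477 in edgeR, at 6 h). Without replicate 2 of 6 h the 6 h value was -0.13 and the mean of the times -0.17 in place of -0.04. Without replicate 1 of 6 h the 6 h value was 0.75.

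The balance between the 2 H2A.Z genes can be read within each library, which removes the scaling between libraries. H2afv made up 9.33% and 9.82% of H2afz plus H2afv reads per kilobase in the SYAT controls, 8.71% and 8.80% at 2 h, 8.45% and 8.18% at 4 h, 8.16% and 7.87% at 6 h, and 7.42% and 6.53% at 8 h. The group means were 9.57% ± 0.35 (SD, n = 2), 8.76% ± 0.07, 8.32% ± 0.19, 8.01% ± 0.21 and 6.98% ± 0.63. Both libraries of each time lay below both libraries of the time before it, replicate 2 of 6 h included. As a share of counts not divided by length, H2afv went from 8.64% (95% Wilson interval 8.16 to 9.14) and 9.10% (8.65 to 9.58) in the controls to 6.86% (6.47 to 7.28) and 6.04% (5.67 to 6.42) at 8 h, intervals that cover counting error only.

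Across the 10 libraries the share fell with hours of IAA, with Pearson's r = -0.943 and Spearman's rho = -0.985. In an exact two-sided permutation test over the 113400 ways to assign the libraries to the times, p = 1.76e-05 for each, the smallest it can give, and 2.65e-05 after adjustment over 3 tests of the share. The third test compared all 8 IAA libraries with the 2 controls: the share was 1.56 percentage points lower (-1.56, exact permutation p = 0.0444 over 45 arrangements). The relation held without the 2 controls (r = -0.901) and without the 2 libraries of 8 h (r = -0.940), and within replicate 1 (r = -0.982) and replicate 2 (r = -0.980), which have 5 libraries each and no p. The share was planned as a description, and the trend was tested after its values had been seen. As a background, the ratio to H2afz was computed for every other gene tested in the time course: 18.5% of 19204 genes had all 8 treated libraries below both controls, so that feature alone is common, whereas a rho as low as that of H2afv was reached by 6 genes (0.0312%), H2afv included.

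**Figure D2:**
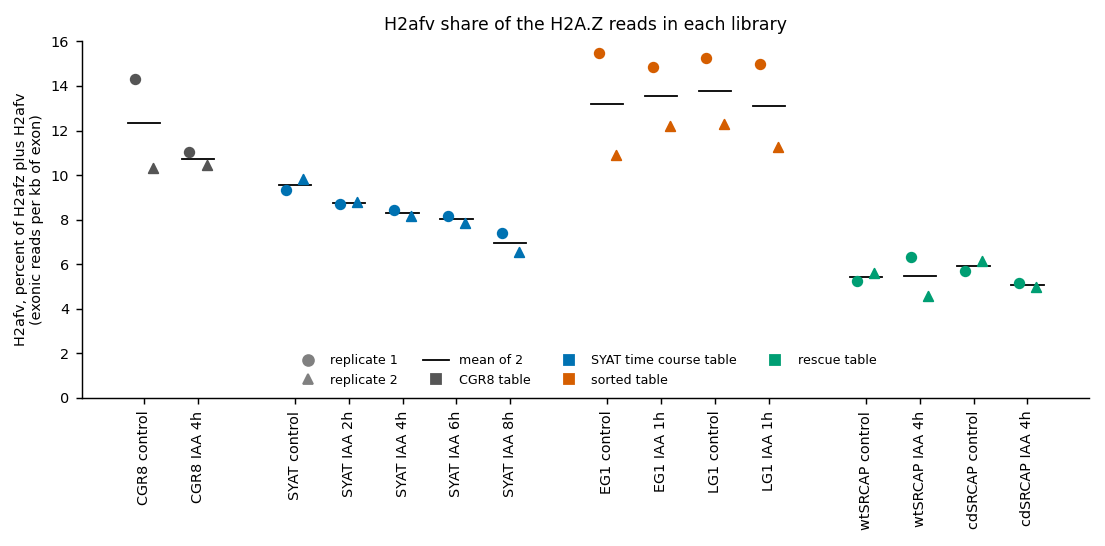
H2afv as a percentage of H2afz plus H2afv, both per kb of exon, in each of the 30 libraries (vertical axis from 0; circles replicate 1, triangles replicate 2, lines the mean of 2, colours the 4 tables). In the SYAT time course the share goes down from 9.33% and 9.82% in the controls to 7.42% and 6.53% at 8 h, with no overlap between neighbouring times. Control and IAA libraries also do not overlap in cdSRCAP cells, and they overlap in CGR8, EG1, LG1 and wtSRCAP cells.

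The other tables have 1 treated time each. In CGR8 cells, which have no degron, the share was 14.3% and 10.3% in the controls and 11.04% and 10.4% after 4 h of IAA, so treated libraries lay within the spread of the controls, whose highest value came from the library with the lowest mitochondrial share of that table. In sorted cells after 1 h it was 13.2% ± 3.25 and 13.5% ± 1.88 (SD, n = 2) in EG1 control and IAA, and 13.8% ± 2.10 and 13.1% ± 2.63 in LG1. In wtSRCAP cells it was 5.24% and 5.60% in the control against 6.32% and 4.59% after 4 h of IAA, so that the treated libraries lay on either side of the controls. The higher of them, replicate 1, is the library with the low mitochondrial share, and the other lay below both controls. In cdSRCAP cells it was 5.69% and 6.13% in the control against 5.17% and 4.98% after IAA, lower in both treated libraries. A comparison of 2 against 2 libraries cannot give an exact permutation p below 0.333, so none is given for these, and the difference between cdSRCAP and wtSRCAP cells was not tested. The tables were scaled separately and their levels of the share are not compared.

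Anp32e, whose product takes H2A.Z out of nucleosomes, was higher in all 8 IAA-treated SYAT libraries than in both controls, as H2afz was, and was the only gene of the 6 with an unadjusted p under 0.05 for the mean of the times. It stood at 171 and 166 CPM in the controls, 183 and 184 CPM at 2 h, 211 and 191 CPM at 4 h, 208 and 227 CPM at 6 h, and 229 and 180.0 CPM at 8 h. The lowest treated library was replicate 2 of 8 h. The log2 fold changes were 0.12, 0.25, 0.37 and 0.28 (SE 0.14 each), and the mean of the times was 0.26 (SE 0.11, 95% interval 0.01 to 0.50, adjusted p = 0.335 in edgeR). Leaving out either 6 h library gave 6 h values of 0.31 and 0.43, neither of them past the test, and without replicate 2 of 6 h the mean of the times was 0.24.

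Nap1l1, a general H2A-H2B chaperone, stood at 591 and 642 CPM in the controls, 638 and 665 CPM at 2 h, 684 and 677 CPM at 4 h, 688 and 559 CPM at 6 h, and 749 and 626 CPM at 8 h. Treated and control libraries overlapped, and the log2 fold changes ran from 0.02 to 0.16 (SE 0.14 each), the lowest at 6 h, where it was 0.16 without replicate 2. Ep400, the ATPase that shares H2A.Z deposition with SRCAP, stood at 276 and 319 CPM in the controls and between 286 and 362 CPM in treated libraries, with log2 fold changes of 0.02 to 0.16 (SE 0.14 each). Its 95% interval for the mean of the times was -0.17 to 0.34. Ino80 stood at 81.6 and 111 CPM in the controls, 93.5 and 123 CPM at 2 h, 99.1 and 133 CPM at 4 h, 95.7 and 124 CPM at 6 h, and 92.4 and 133 CPM at 8 h. Replicate 2 was above replicate 1 in all 5 groups, by 0.37 to 0.52 on the log2 scale, as it was for 11.2% of genes. The change with IAA was smaller than this spread, at 0.16 to 0.27 (SE 0.24 each). Each of the 8 treated libraries was above the control of the same number, as for 12.7% of genes, and without replicate 2 of 6 h the 6 h value was -0.01 in place of 0.19.

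In CGR8 cells, which have no degron, IAA was compared with the auxinole control, with 2 libraries per group. After 4 h, 0 of 6 were called, against 0.00988% of 20250 genes, and 0 of 6 had an unadjusted p under 0.05, against 9.16%. DESeq2 called 0 of 6, and 140 of all genes. H2afz stood at 896 and 765 CPM in the controls and 781 and 751 CPM after IAA, a log2 fold change of -0.12 (SE 0.13). Anp32e stood at 218 and 202 CPM against 199 and 183 CPM (-0.14, SE 0.13), and Nap1l1 at 475 and 494 CPM against 513 and 622 CPM (0.23, SE 0.14). H2afv stood at 138 and 81.0 CPM in the controls and 89.1 and 80.4 CPM after IAA. Its log2 fold change was -0.37 (SE 0.23, adjusted p = 0.65 in edgeR). The value rested on replicate 1 of the control, the library with 0.575% mitochondrial reads, and the part of that share in it was not tested. It was 0.08 without that library and -0.69 without replicate 2 of the control. Ep400 (247 and 283 against 289 and 259.7 CPM) and Ino80 (130.3 and 126 against 158 and 141 CPM) had log2 fold changes of 0.05 and 0.22 (SE 0.14 and 0.13). Over fits that left out 1 library, H2afz ran from -0.22 to 0.02, Ep400 from -0.03 to 0.16 and Nap1l1 from 0.09 to 0.38. Anp32e and Ino80 kept their signs.

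In sorted cells, 1 h of IAA around mitosis (EG1) or within G1 (LG1) left the 6 genes where they were within the spread of replicates. In EG1 and in LG1, 0 of 6 genes were called, against 0% of 21020 genes in each. The study's looser rule for these cells, an unadjusted p under 0.05 and an absolute log2 fold change over 0.25, took 0 of 6 in each, against 1.22% of genes in EG1 and 1.02% in LG1. LG1 against EG1 controls, and the difference between the 2 changes with IAA, each called 0 of 6 and 0% of genes, and no member had an unadjusted p under 0.05, as 1.44% and 0.699% of genes had. H2afz stood at 247 and 443 CPM in EG1 controls, 287 and 445 CPM in EG1 after IAA, 262 and 453 CPM in LG1 controls, and 279.9 and 495 CPM in LG1 after IAA. Anp32e stood at 94.3 and 159, 111 and 158, 90.1 and 148, and 98.3 and 160.1 CPM in the same order.

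The larger difference in sorted cells was between replicates. Replicate 2 was above replicate 1 in all 4 groups for H2afz (by 0.63 to 0.84 on the log2 scale), Anp32e (0.52 to 0.75), Nap1l1 (0.33 to 0.46), H2afv (0.25 to 0.42) and Ino80 (0.10 to 0.35), as it was for 28.2% of genes, and not for Ep400 (-0.09 to 0.12). Replicate 1 also had more mitochondrial reads (2.15 to 2.40% against 1.69 to 1.85%) and more Malat1 and Neat1 reads (0.725 to 0.976% against 0.385 to 0.462%) than replicate 2, and the part of that difference in the gene values was not tested. With the replicate number as a block, the 95% intervals of the changes after 1 h narrowed: -0.03 to 0.25 in EG1 and -0.02 to 0.25 in LG1 for H2afz, -0.03 to 0.26 and -0.03 to 0.27 for Anp32e, -0.17 to 0.11 and -0.08 to 0.19 for Ep400, and 0.02 to 0.32 and -0.13 to 0.17 for H2afv. All lay within the threshold of 0.5 in either direction, and the lowest adjusted p was 0.545 (H2afv in EG1). Nap1l1 in LG1 against EG1 controls was 0.18 with the block (0.05 to 0.31, adjusted p = 0.202).

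**Figure D3:**
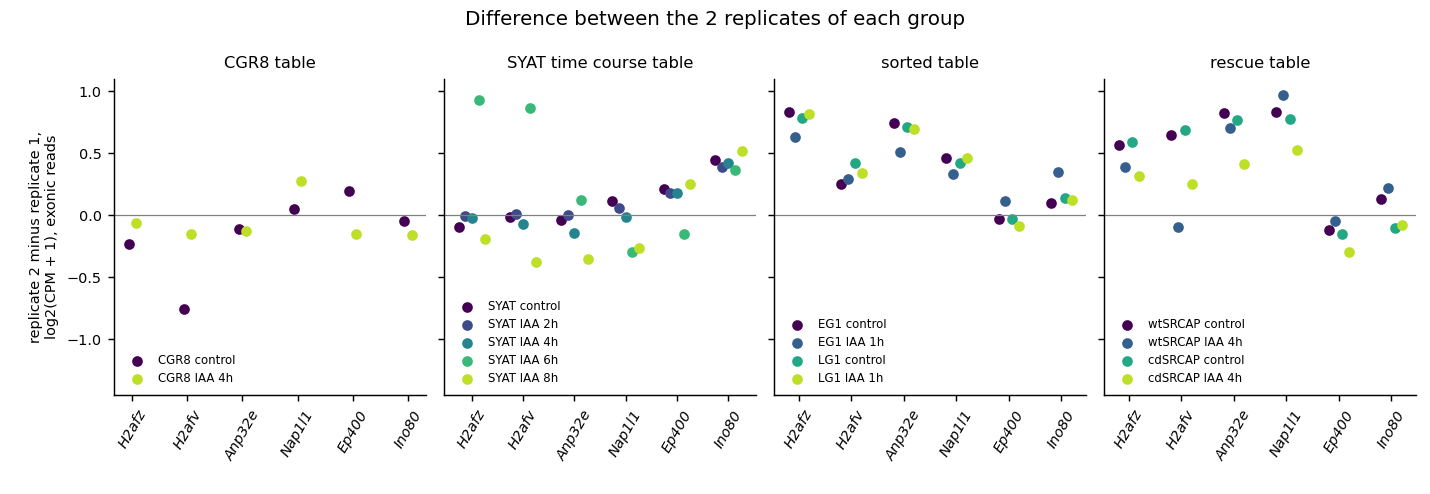
Replicate 2 minus replicate 1 of each group, as the difference of log2(CPM + 1) of exonic reads (vertical axis), for the 6 genes in the 4 tables; each point is 1 group. In sorted cells the 4 points of H2afz, Anp32e, Nap1l1 and H2afv lie above 0, and in the time course the H2afz and H2afv points of 6 h stand alone near 0.9.

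Expression of wtSRCAP or cdSRCAP asked whether an active or an inactive enzyme compensates for the degraded one. After 4 h of IAA 0 of 6 genes were called in wtSRCAP cells (0.00523% of 19111 genes) and 0 of 6 in cdSRCAP cells (0%). The difference between these changes called 0 of 6 (0%), as did cdSRCAP against wtSRCAP controls (0%) and cdSRCAP against wtSRCAP after IAA (0.00523%). None of the 6 had an unadjusted p under 0.05 in these 5 comparisons, in which 7.4%, 5.64%, 0.785%, 3.82% and 5.03% of genes had one. DESeq2 called 0 of 6 in each, and 36, 20, 0, 23 and 8 of all genes in the same order. With the replicate number as a block 0 of 6 were called as well, against 3.2%, 1.81%, 0%, 0.91% and 1.41% of genes. In that fit 2, 1, 0, 1 and 2 of 6 had an unadjusted p under 0.05, against 17.7%, 14.7%, 2.94%, 10.1% and 14.1%: H2afz and Anp32e in wtSRCAP cells, Anp32e in cdSRCAP cells, Ino80 between the controls, and Ep400 and Ino80 between the IAA groups.

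H2afz stood at 432 and 641 CPM in wtSRCAP controls and 563 and 738 CPM after IAA, and at 425 and 642 CPM in cdSRCAP controls and 564 and 702 CPM after IAA. Anp32e stood at 115 and 204 against 148 and 242 CPM in wtSRCAP cells, and at 108 and 185 against 167 and 222 CPM in cdSRCAP cells. Both genes were higher after IAA in each replicate of each cell line, as were Ino80, Nap1l1 and 18.1% of all genes, while the control and treated libraries overlapped because replicate 2 was above replicate 1 throughout (by 0.32 to 0.59 for H2afz and 0.41 to 0.82 for Anp32e on the log2 scale, as for 23.4% of genes). Without the block the log2 fold changes were 0.28 and 0.25 for H2afz and 0.29 and 0.41 for Anp32e in wtSRCAP and cdSRCAP cells. With it they were 0.29 and 0.27 for H2afz (adjusted p = 0.253 and 0.362 in edgeR) and 0.30 and 0.45 for Anp32e (0.261 and 0.11). Without replicate 1 of the IAA-treated wtSRCAP group, the library with the low mitochondrial share, the unblocked wtSRCAP values were 0.49 for H2afz and 0.63 for Anp32e, and the blocked ones 0.28 and 0.36.

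In the mean of both IAA groups against both control groups, a contrast chosen after the values had been seen, Anp32e had a log2 fold change of 0.35 without the block (SE 0.26, adjusted p = 0.66 in edgeR) and 0.38 with it (95% interval 0.17 to 0.58, adjusted p = 0.0162). H2afz had 0.26 without it (adjusted p = 0.679) and 0.28 with it (0.08 to 0.48, adjusted p = 0.0589), and Ino80 had 0.27 in both fits (adjusted p = 0.468 and 0.085). None passed the threshold of 0.5 on the fold change: 0 of 6 were called, against 0.00523% of genes without the block and 7.33% with it. At an unadjusted p under 0.05, 0 of 6 passed without the block, against 12.4% of genes, and 3 of 6 with it, against 24.8%. At an adjusted p under 0.05 and any fold change, the blocked fit took 1 of 6 genes (Anp32e) and 11.1% of all genes. Leaving out single libraries moved the unblocked Anp32e value between 0.16 and 0.59. In the blocked fit it moved it between 0.28 and 0.47, and the adjusted p stayed under 0.05 in 5 of 8 such fits (it was 0.188 and 0.116 without replicate 1 of the wtSRCAP or cdSRCAP control, and 0.191 without replicate 1 of cdSRCAP after IAA). Without replicate 1 of wtSRCAP after IAA the blocked values were 0.39 for Anp32e (adjusted p = 0.000885), 0.26 for H2afz (0.0383) and 0.33 for Ino80 (0.00746). These cells express another SRCAP during the treatment, so that the value is not a repeat of the time course.

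Ep400 and Ino80, the 2 ATPases, were higher in cdSRCAP than in wtSRCAP cells with and without IAA. Ep400 stood at 361 and 333 CPM in wtSRCAP controls, 345 and 335 CPM in wtSRCAP after IAA, 430.5 and 387 CPM in cdSRCAP controls and 500.5 and 408 CPM in cdSRCAP after IAA, so that all 4 cdSRCAP libraries lay above all 4 wtSRCAP libraries, as for 3.13% of genes. Ino80 stood at 110.4 and 121, 127 and 149, 149 and 139, and 179.7 and 171 CPM in the same order, with overlap between wtSRCAP after IAA and cdSRCAP controls. After IAA the cdSRCAP to wtSRCAP log2 fold change of Ep400 was 0.42 (SE 0.20, adjusted p = 0.951 in edgeR) and that of Ino80 was 0.34 (SE 0.19, adjusted p = 0.952). With the block these were 0.41 (95% interval 0.13 to 0.69, adjusted p = 0.139) and 0.34 (0.05 to 0.64, adjusted p = 0.266). Without replicate 1 of wtSRCAP after IAA the blocked values were 0.28 and 0.17.

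Over control and IAA together, again a contrast chosen after the values had been seen, Ep400 differed by 0.33 (SE 0.14, adjusted p = 0.587) and Ino80 by 0.33 (SE 0.14, adjusted p = 0.565). These 2 of 6 genes had an unadjusted p under 0.05, against 8.49% of all genes, and 0 of 6 were called, against 0.0209%. With the replicate block the same 2 genes had one, against 18.2%, and Ep400 had 0.32 (95% interval 0.13 to 0.52, adjusted p = 0.0464) and Ino80 0.33 (0.12 to 0.54, adjusted p = 0.0566). At an adjusted p under 0.05 and any fold change the blocked fit took 1 of 6 genes (Ep400) and 5.08% of all genes. The adjusted p of Ep400 stayed under 0.05 in 1 of 8 blocked fits that left out 1 library, without replicate 2 of wtSRCAP after IAA. In the other 7 it was 0.0573 to 0.289, with values of 0.26 to 0.37, and without the library with the low mitochondrial share it was 0.0616. Each cell line is a single clone, so that clone and construct cannot be told apart. H2afz, H2afv, Anp32e and Nap1l1 differed between the cell lines by -0.07 to 0.07 in that contrast without the block.

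H2afv had no common direction over the same-numbered pairs of these cells, while Nap1l1 was higher after IAA in 4 of 4 pairs. H2afv stood at 21.95 and 34.97 against 34.9 and 32.7 CPM in wtSRCAP cells (log2 fold change 0.25, SE 0.31) and at 23.6 and 38.6 against 28.2 and 33.8 CPM in cdSRCAP cells (-0.01, SE 0.30). With the block these were 0.28 and 0.02. Without replicate 1 of wtSRCAP after IAA the wtSRCAP value was 0.22 without the block and -0.00257 with it. Nap1l1 stood at 279 and 499 against 280.0 and 550.0 CPM in wtSRCAP cells, and at 286 and 490.1 against 374 and 539.6 CPM in cdSRCAP cells, with log2 fold changes of 0.09 and 0.24 (95% intervals -0.83 to 1.01 and -0.69 to 1.16). With the block the values were 0.08 and 0.27 (-0.21 to 0.36 and -0.02 to 0.55), and without replicate 1 of wtSRCAP after IAA the wtSRCAP value was 0.52 without the block and 0.24 with it.

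**Figure D4:**
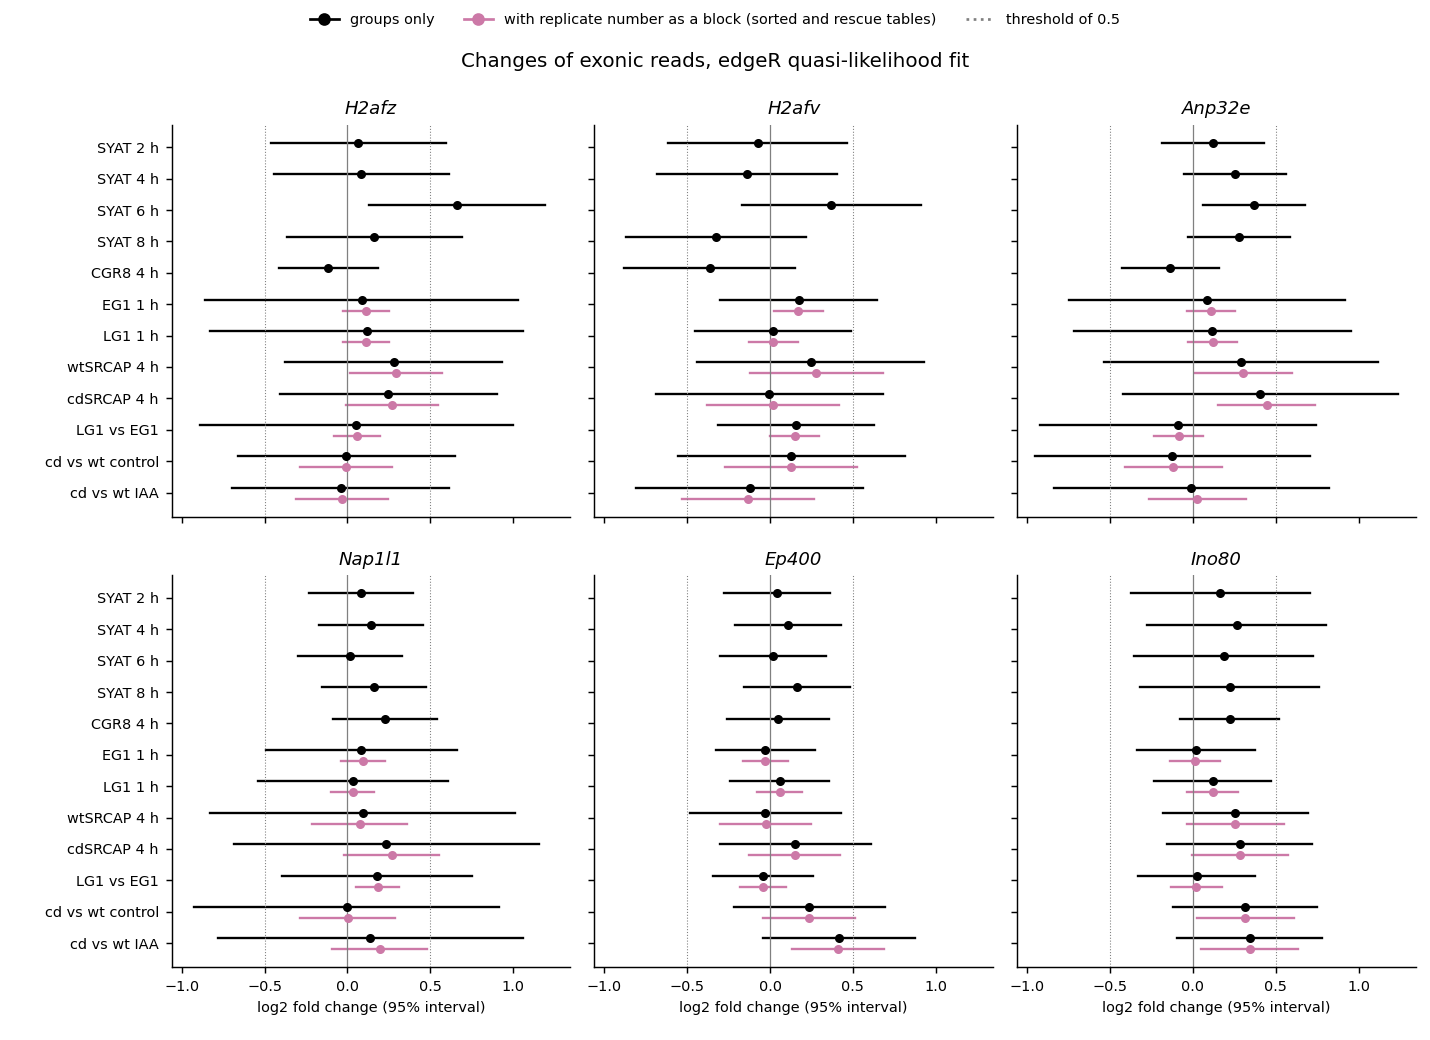
Log2 fold changes of exonic reads (horizontal axis) with 95% intervals for each of the 6 genes in 12 comparisons (vertical axis), black for the fit with groups only and pink with the replicate number as a block in the sorted and the wtSRCAP and cdSRCAP tables; dotted lines mark 0.5. Estimates lie within 0.5 of 0 except H2afz at 6 h (0.66), and the blocked intervals do not reach 0 for H2afz and Anp32e in wtSRCAP cells, Anp32e in cdSRCAP cells, Ep400 and Ino80 for cdSRCAP against wtSRCAP after IAA, Ino80 for the same in controls, H2afv in EG1, and H2afv and Nap1l1 for LG1 against EG1.

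Intronic reads, which follow ongoing transcription more closely than exonic reads, were available with different content in different tables. Among genes with a single exon and at least 20 exonic counts in every library, 53.2% of 1284 in the time course and 44.7% of 2183 in EG1 libraries had counts in the intron columns, against 0 of 1837 in CGR8, 0 of 2060 in LG1 and 0 of 1053 in wtSRCAP and cdSRCAP libraries. Among genes with introns and as many exonic counts, the intron column was at least as large as the exon column in every library for 65.9% of 11482 in the time course and 68.0% in EG1, against 5.63% in CGR8, 13.2% in LG1 and 8.14% in wtSRCAP and cdSRCAP libraries. The intron columns of the time course and of EG1 therefore held exonic reads for many genes, all 6 members included, but not for every gene: 12.4% in the time course were at 0 in every library, and 34.1% lay below the exon column in at least 1. LG1 was not compared with EG1 on these columns. For the time course the exon column was subtracted, with negative values set to 0, a step added after the files were seen. H2afz has 660 intronic bases and only 7 to 39 counts in the CGR8, LG1, wtSRCAP and cdSRCAP libraries, too few to follow.

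No member was called on intronic reads in the comparisons made with all libraries in the fit. With 1 library left out, Anp32e in CGR8 cells had -0.61 without replicate 2 of the control, in place of -0.36. In the columns as deposited, H2afz at 6 h had 1.05 without replicate 1 of 6 h, in place of 0.63. With all libraries, 0.022% of 13634 genes were called in CGR8 cells. In the time course columns as deposited the share of genes called was 0%, 0%, 0.0136% and 0.00679% at 2, 4, 6 and 8 h and 0.91% for the mean of the times. After subtraction it was 0%, 0%, 0% and 0% at the single times and 0.266% of 10138 genes for the mean. In sorted cells it was 0.00573% in EG1 and 0% in LG1 after 1 h. In wtSRCAP and cdSRCAP cells it was 0.299% and 0.236% for the changes with IAA, 0% for their difference, 0.102% and 0.0157% for cdSRCAP against wtSRCAP in controls and after IAA, 1.13% for the mean of these and 3.5% for the mean change with IAA.

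After subtraction, Anp32e had the largest intronic value of the 6 genes for the mean of the times: its log2 fold changes were 0.38, 0.50, 0.59 and 0.33 at 2, 4, 6 and 8 h (SE 0.17 each) and 0.45 for the mean (SE 0.14, adjusted p = 0.154 in edgeR). Nap1l1 followed with 0.36 (adjusted p = 0.227), then Ino80 with 0.29 and Ep400 with 0.27 (adjusted p = 0.376 and 0.293), and H2afv had -0.29 (SE 0.18, adjusted p = 0.43). At an unadjusted p under 0.05, 2 of 6 genes passed for that mean, against 17.9% of all genes. Without replicate 2 of 6 h the values were 0.42 for Anp32e and -0.33 for H2afv, and over all fits that left out 1 library they ran from 0.41 to 0.50 and from -0.50 to -0.03, with 0 calls. The signs for Anp32e and H2afv were those of their exonic reads. The intronic counts behind H2afv were 90 to 243 per library, and those behind Anp32e 145 to 380. In the mean IAA change of wtSRCAP and cdSRCAP cells, where the intron columns hold no counts of single-exon genes, Anp32e had 0.41 (SE 0.21, adjusted p = 0.316), H2afv -0.37 (SE 0.25, adjusted p = 0.469) and Nap1l1 0.24 (SE 0.12, adjusted p = 0.324). With the replicate block the intronic adjusted p of Nap1l1 was 0.0345 at the same 0.24, and 1 of 6 genes and 10.5% of all genes were under 0.05 at any fold change.

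Other genes around H2A.Z were counted as lists chosen with earlier results of these data known. In exonic reads over all 17 comparisons without a block, 0 genes were called among 14 other H2A-H2B chaperones, 14 other INO80 subunits (13 of them tested in the time course), 6 other histone variants and 6 readers and partners of H2A.Z. The same rule called 1.21% of all genes for the mean of the IAA times in SYAT cells and at most 0.0677% in each other comparison. For lists of this size, 0 calls is near those shares. Among 9 SRCAP subunits and 17 TIP60 subunits other than Ep400, the same gene was called lower once: Dmap1, a subunit of both complexes. Its exonic reads were 27.2 and 28.1 CPM in SYAT controls, 19.95 and 20.11 CPM at 2 h, 17.2 and 17.7 CPM at 4 h, 15.3 and 20.6 CPM at 6 h, and 14.7 and 12.4 CPM at 8 h, a log2 fold change of -0.70 for the mean of the times (SE 0.14, adjusted p = 0.0451 in edgeR). All treated libraries lay below both controls, but the call was lost in 8 of 10 fits that left out 1 library (adjusted p up to 0.513). In wtSRCAP cells Dmap1 stood at 27.97 and 35.6 against 18.7 and 19.7 CPM, and in CGR8 cells at 38.5 and 29.9 against 30.5 and 29.1 CPM, neither of them called without a block.

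With the replicate block, more list genes passed in wtSRCAP and cdSRCAP cells, where 3.2% and 1.81% of all genes were called after IAA. Dmap1 was called lower after IAA in wtSRCAP cells (-0.72, adjusted p = 0.0353 in edgeR; -0.62 and 0.00373 in the mean of both cell lines), and the wtSRCAP call was kept in 1 of 4 fits that left out 1 library, the one without replicate 1 after IAA (-0.80). Kat5, the acetyltransferase of TIP60, was called lower in cdSRCAP cells (-0.77, adjusted p = 0.0234) and in that mean (-0.69, adjusted p = 0.000799). In the mean over both cell lines, where 7.33% of all genes were called, the INO80 subunit Tfpt (-0.56, adjusted p = 0.0288) and the chaperones Nap1l2 and Nap1l3 (-1.20 and -1.80, adjusted p = 0.0172 and 0.038) were lower as well. Pwwp2b, a reader of H2A.Z nucleosomes, was called higher in wtSRCAP cells (0.92, adjusted p = 0.0116) and in the mean (0.82, adjusted p = 0.000555). The TIP60 subunit Morf4l2 and Pwwp2b were called lower in cdSRCAP than in wtSRCAP cells (-0.56 and -0.50, adjusted p = 0.00125 and 0.0387), beside 3.77% of all genes. In sorted cells the block gave 1 call, H2afx in LG1 against EG1 controls (0.95, adjusted p = 5.23e-08), beside 0.723% of all genes.

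The medians of these lists stayed between -0.21 and 0.27 on the log2 scale in the 17 comparisons. For the mean of the IAA times in SYAT cells they were -0.10 for the SRCAP complex, -0.05 for TIP60, -0.05 for INO80, 0.07 for the chaperones, 0.14 for the other variants and 0.08 for readers and partners, beside 0.02 over all genes. In intronic reads without a block the list genes gave a single call, Pwwp2b. It rose in the mean IAA change of wtSRCAP and cdSRCAP cells by a log2 fold change of 0.92 (SE 0.21, adjusted p = 0.0474 in edgeR), beside 3.5% of all genes called. With the block it was called there (0.94) and in wtSRCAP cells (1.02), beside 7.31% and 2.3% of all genes, and the TIP60 subunit Epc2 was higher in cdSRCAP than in wtSRCAP cells after IAA (0.56, adjusted p = 0.0251), beside 1.89%. The exonic reads of Pwwp2b were 20.3 and 19.9 CPM in SYAT controls and 25.1 to 41.5 CPM in the 8 treated libraries (log2 fold change 0.70 for the mean, SE 0.17, adjusted p = 0.0932).

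Across all 30 libraries, each centred on the mean of its own table, H2afz went with Anp32e (Pearson's r = 0.862) and with H2afv (r = 0.787), Anp32e with Nap1l1 (r = 0.804) and with H2afv (r = 0.600), and Ep400 with Ino80 (r = 0.665), while Ep400 ran against H2afv (r = -0.437). These are descriptions over libraries that share replicate numbers and differ in depth. For H2afz with H2afv, this value and the next include replicate 2 of 6 h, which was high for both genes (1175 and 92.2 CPM). Their r without that library was not computed. In the other treated libraries of the time course, H2afz lay above both controls and H2afv below both. Centred within replicate number as well, the values were 0.731 for H2afz with Anp32e, 0.774 for H2afz with H2afv, 0.349 for Anp32e with Nap1l1 and 0.760 for Ep400 with Ino80, so the Anp32e and Nap1l1 value leaned on the replicate difference. Among 17481 genes that passed the filter in all 4 tables, the patterns most like that of H2afz were those of Heatr3 (r = 0.963) and Gm7993 (r = 0.963), of H2afv Ndufv1 (0.930) and Atp5e (0.924), and of Anp32e Kpnb1 (0.982) and Psmd7 (0.972). For Ep400 they were Tet1 (0.842) and Olfr924 (0.816), for Ino80 Zfp57 (0.892) and Dnajb6 (0.883), and for Nap1l1 Cse1l (0.977) and Dhx9 (0.974).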

How the data were processed

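Nuclear RNA-seq of 30 libraries was used. The authors aligned reads with STAR to mm10 and deposited whole-number counts per gene from featureCounts for exons (GENCODE vM25) and for introns (gene body minus exons). How multi-mapping reads were handled is not given in the sources used here. The submitters' processing notes name SAMtools 1.10, Picard and DESeq2. Each of the 4 tables was fitted once with edgeR 4.0.16 in R 4.3.3 (glmQLFit and glmQLFTest, TMM, filterByExpr with a minimum count of 10, total 15), with 1 mean per group and Benjamini-Hochberg adjustment. Tables were never joined. The scripts were tested on simulated data. Gene models, sequences and lengths came from GENCODE vM21 and RefSeq (GRCm38), and CPM used TMM library sizes. The members and lists were chosen with earlier results of these data known. Named genes were the 6 members, list genes called, and the 2 genes most like each member. Alternatives were size factors by RLE, DESeq2 1.42.0, no filter, only the 2 groups compared, a replicate block and leaving out each library. Replicate numbers paired the samples in the sorted table and in the wtSRCAP and cdSRCAP table, where deviations from group means of same-numbered samples correlated at 0.55 to 0.73 and 0.45 to 0.58 in all 6 group pairs of each. Depth per library is given above, and intervals on shares cover counting error only.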

Additional observations from a re-analysis of the deposited data

Results flagged for a closer look

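After 4 h of IAA the log2 fold change of H2afz was 0.0827 in SYAT cells, with the degron, and -0.12 in CGR8 cells, without it. Each treated library lay above the mean of its controls in SYAT cells and below it in CGR8 cells. In CGR8 cells the treated libraries (781 and 751 CPM) overlapped with the controls (896 and 765 CPM). Over CGR8 fits that left out 1 library the value ran from -0.22 to 0.02, so its sign was not kept. Anp32e had 0.25 in SYAT cells and -0.14 in CGR8 cells, with its treated libraries on the same sides of the control means. Its CGR8 value kept its sign when 1 library was left out (-0.18 to -0.07). The difference between the cell lines was not tested, because they are in separate tables that were scaled separately, and none of the 4 changes passed its own test.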

How the results depend on the processing

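On exonic reads without a block, 0 of 6 members were called in every comparison and setting that kept all libraries of the groups compared, with 1 exception. At 6 h in SYAT cells without a filter on low counts, 1 member was called (H2afz), beside 885 genes in all. With 1 library left out, which leaves 1 in its group, H2afz ran from 0.12 to 1.06 and H2afv from -0.13 to 0.75 at 6 h. H2afv in CGR8 cells ran from -0.69 to 0.08. Values of members that were not called changed sign in 21 of 474 exonic fits under other settings and in 128 of 540 that left out 1 library. In 2 of the latter the original value was over 1 SE: H2afv in CGR8 cells without replicate 1 of the control (0.08) and H2afv at 6 h without replicate 2 (-0.13). The H2afv share kept its trend with r from -0.959 to -0.930 when 1 library was left out, and r = -0.943 for counts not divided by exon length; these settings and the subtraction of exon from intron columns were chosen after seeing the data.

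With the replicate number as a block, 0 of 6 members were called in every comparison with all libraries. Settings with the block and 1 library left out were added after seeing the data and run for wtSRCAP and cdSRCAP cells. In these, H2afv in wtSRCAP cells ran from -0.00257 to 0.62, the highest without replicate 2 after IAA. That fit kept replicate 1, the library with the low mitochondrial share, as the only treated wtSRCAP library. The adjusted p values of Anp32e (0.0162) and Ep400 (0.0464) given above came from the block with all libraries. In the time course 9 of 10 group pairs correlated above 0.1. Group pairs without 6 h ran from 0.38 to 0.68, and those with 6 h from -0.02 (control with 6 h) to 0.15. The 1 group pair of CGR8 cells also lay above 0.1 (0.21). The numbers were still not taken as pairs in the time course and in CGR8 cells, so a pairing may be missed there. Of single members, a blocked value is given there for Ino80 only. With the block Ino80 had 0.21 for the mean of the times (adjusted p = 0.156), and the block moved the count of all genes called from 13 to 823 at 6 h, from 233 to 792 for the mean of the times and from 2 to 500 in CGR8 cells. In the other tables it moved the count from 1 to 612 in wtSRCAP cells and from 0 to 345 in cdSRCAP cells after IAA, from 0 to 152 in LG1 against EG1, and from 1 to 1400 and 4 to 720 in the means over cell lines and over treatments. DESeq2 called 140, 639 and 546 genes in CGR8 cells, at 6 h and for the mean of the times. Without a filter the counts were 386, 885 and 624. On intronic reads, member values changed sign in 4 of 420 fits under other settings and 85 of 468 that left out 1 library. Each member had at least 313 exonic counts in every library, while H2afz had as few as 7 intronic counts, which limits what its introns can show.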
